A study of Mus musculus with 4 samples.

Results

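The globin loci were examined in CTCF CUT&RUN peak lists from mouse embryonic stem cells (mESC), at 8 member genes: Nprl3, Hba-x, Hba-a1 and Hba-a2 of the alpha locus and Hbb-bt, Hbb-bs, Hbb-bh1 and Hbb-y of the beta locus, out of 49718 genes in the RefSeq table. On chr11 of GRCm38.p6 Nprl3 spans 32231963 to 32267707, Hba-x 32276600 to 32278116, Hba-a1 32283672 to 32284486 and Hba-a2 32296492 to 32297310. On chr7 Hbb-bt spans 103812524 to 103813923, Hbb-bs 103826523 to 103827928, Hbb-bh1 103841638 to 103843162 and Hbb-y 103851754 to 103853207. A CTCF summit, the highest point of a peak, was taken where it lay within 50 kb of a member gene in mm10. This gave 83 summits, 67 at the alpha locus on chr11 and 16 at the beta locus on chr7, among 334066 peaks in the 4 lists. A further 65 lay at the alpha locus on chr11_delB, the second copy of chromosome 11 in the authors' modified genome. CUT&RUN cuts out the DNA around an antibody-bound protein with a tethered nuclease. The 4 libraries, 1 per genotype, came from cells of the genotype HoxB Del/Del(i9-13) that all carry Ins(CBS5-10). The first, named Ins here, has this insertion alone. The second, named Del(CBS8-10), has that deletion in addition. The third, named Inv, has Inv(CBS5-10) in addition, and the fourth, named Inv:Del(CBS7-10), has the same inversion together with Del(CBS7-10). All 4 share a HoxB deletion on one chromosome 11 and, on the other, the deletion named i9-13 with an inserted array of CTCF sites. The sources used here do not say whether each line is a single clone, and a peak list holds no marker of cell identity. The edits lie at HoxB, far from both globin loci, so the lists are set side by side here and no difference between genotypes was tested.

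CTCF binds DNA through an array of zinc fingers, acts at insulators and halts cohesin as it extrudes chromatin loops. The alpha and beta globin loci make the chains of haemoglobin in red blood cell precursors and are classic models of long-range gene control. The alpha globin genes are driven by enhancers that lie within introns of their neighbour Nprl3, which encodes a subunit of the GATOR1 complex that restrains mTORC1. The beta globin genes are driven by a locus control region beyond Hbb-y and stand among olfactory receptor genes.

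The lists held 93969, 74555, 66365 and 99177 peaks in Ins, then Del(CBS8-10), then Inv, then Inv:Del(CBS7-10), the order kept throughout for all series of 4 values. Their median pileup, the number of fragments over a summit, was 26, 17, 14 and 35. The −log10 q and the fold over local background were computed per peak by the authors and depend on the depth of the library. The percentile of a peak within its own list is therefore given beside them. On chromosome 11 the Inv library stood apart: its pileup at peaks shared by all libraries was 0.53 log2 above the other 3, after scaling to the other autosomes, against 0.02 on chromosome 7. The alpha locus lies outside HoxB and is present on both copies of chromosome 11 in the modified genome, so its reads could be placed on either. The sources used here do not say how such reads were treated.

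The 2 strongest CTCF sites among the alpha globin genes lay at the promoters of Hbq1b and Hbq1a, the theta globin genes that follow Hba-a1 and Hba-a2. These promoters are shown because their CTCF summits fell beside a CTCF-like core. The 250 bases before each gene start (RefSeq, GRCm38.p6, plus strand) are printed 5′ to 3′, at chr11:32286714-32286963 for Hbq1b and chr11:32299819-32300068 for Hbq1a. Capitals mark the match to the core CCAGGGGGC, found on the minus strand in both.
Hbq1b: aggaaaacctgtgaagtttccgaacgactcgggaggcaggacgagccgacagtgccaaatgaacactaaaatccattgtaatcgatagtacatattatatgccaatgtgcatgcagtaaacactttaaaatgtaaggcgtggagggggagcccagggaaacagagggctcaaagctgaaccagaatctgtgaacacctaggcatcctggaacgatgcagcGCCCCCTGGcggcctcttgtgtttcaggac
Hbq1a: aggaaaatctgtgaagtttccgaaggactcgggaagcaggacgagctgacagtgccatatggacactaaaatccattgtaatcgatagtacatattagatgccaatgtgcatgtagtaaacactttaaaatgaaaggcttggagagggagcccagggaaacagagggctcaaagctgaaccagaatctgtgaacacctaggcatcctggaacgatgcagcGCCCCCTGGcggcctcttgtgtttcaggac
The core spans 32286934 to 32286942 in Hbq1b, and the summits of the 4 libraries lay 8, 13, 16 and 7 bp from it. In Hbq1a it spans 32300039 to 32300047, with summits 10, 12, 14 and 4 bp away. Both strands were searched. The core was found in 1.03% of 32131 RefSeq promoter windows of 300 bases, which run from 250 bases before to 50 after a start. A looser form, CCAGNNGGC, which includes each match of the first, was found in 8.76%. Of 18 promoter windows at the 2 loci, the first form was present in Hbq1b and Hbq1a only, and the looser form also in Mpg. The letters were chosen after the theta promoters were read, so their presence in both was fixed in advance. The Snrnp25 window held a summit in every library but neither form. The window of Hbq1a held a second match of the first form, among the bases after its start that are not printed. Windows were available for 7 of the 8 members, all but Hbb-bh1, and none of the 7 held either form. A match is a description of letters and not a measured site.

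The theta promoters are near copies of each other, which limits what can be said of each. They differed at 11 of the 250 bases printed, and the last 105 bases, which hold the core, were identical. The promoter windows of Hba-a1 and Hba-a2 were identical over 297 bases, whereas those of Hbb-bt and Hbb-bs matched at 56.2% of 299 bases. Reads from the identical stretches cannot be assigned to one copy by sequence, so the Hbq1b and Hbq1a values may each include fragments of the other.

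At Hbq1b, 2.44 kb beyond Hba-a1, the summit at 32286926 had a −log10 q of 92.7, 49.3, 66.6 and 195. The pileup was 96, 54, 66 and 196 fragments, with exact 95% Poisson intervals of 77.8 to 117, 40.6 to 70.5, 51.0 to 84.0 and 170 to 225, which cover counting error only. The percentile was 90.3, 92.1, 96.4 and 91.8, a range of 6.11 points, the narrowest of the 13 alpha positions bound in every library. At Hbq1a, 2.72 kb beyond Hba-a2, the summit at 32300029 had a −log10 q of 76.2, 28.9, 81.7 and 208. Its pileup was 81, 32, 76 and 205, with intervals of 64.3 to 101, 21.9 to 45.2, 59.9 to 95.1 and 178 to 235. The ratio of Hbq1b to Hbq1a pileup was 1.19, 1.69, 0.868 and 0.956, so neither copy was the higher in every library, and the intervals of the pair overlapped in each library. As reads of the identical stretch may be placed on either copy, this cannot show whether the sites are alike.

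A weaker companion stood before each theta promoter. The one at 32286069, 1.58 kb from Hba-a1, was present in all 4 lists with a −log10 q of 17.6, 12.9, 5.81 and 23.2. The one at 32299086, 1.78 kb from Hba-a2, was listed with 9.12, 8.71 and 21.5 in the 3 libraries other than Inv, where it was not listed. These companions were the summits nearest to the adult alpha genes in those lists, and in the Inv list the Hbq1a site itself was the nearest to Hba-a2, at 2.72 kb. A separate summit at 32300292, within Hbq1a, was listed for Inv:Del(CBS7-10) alone, at 8.99.

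**Figure D1:**
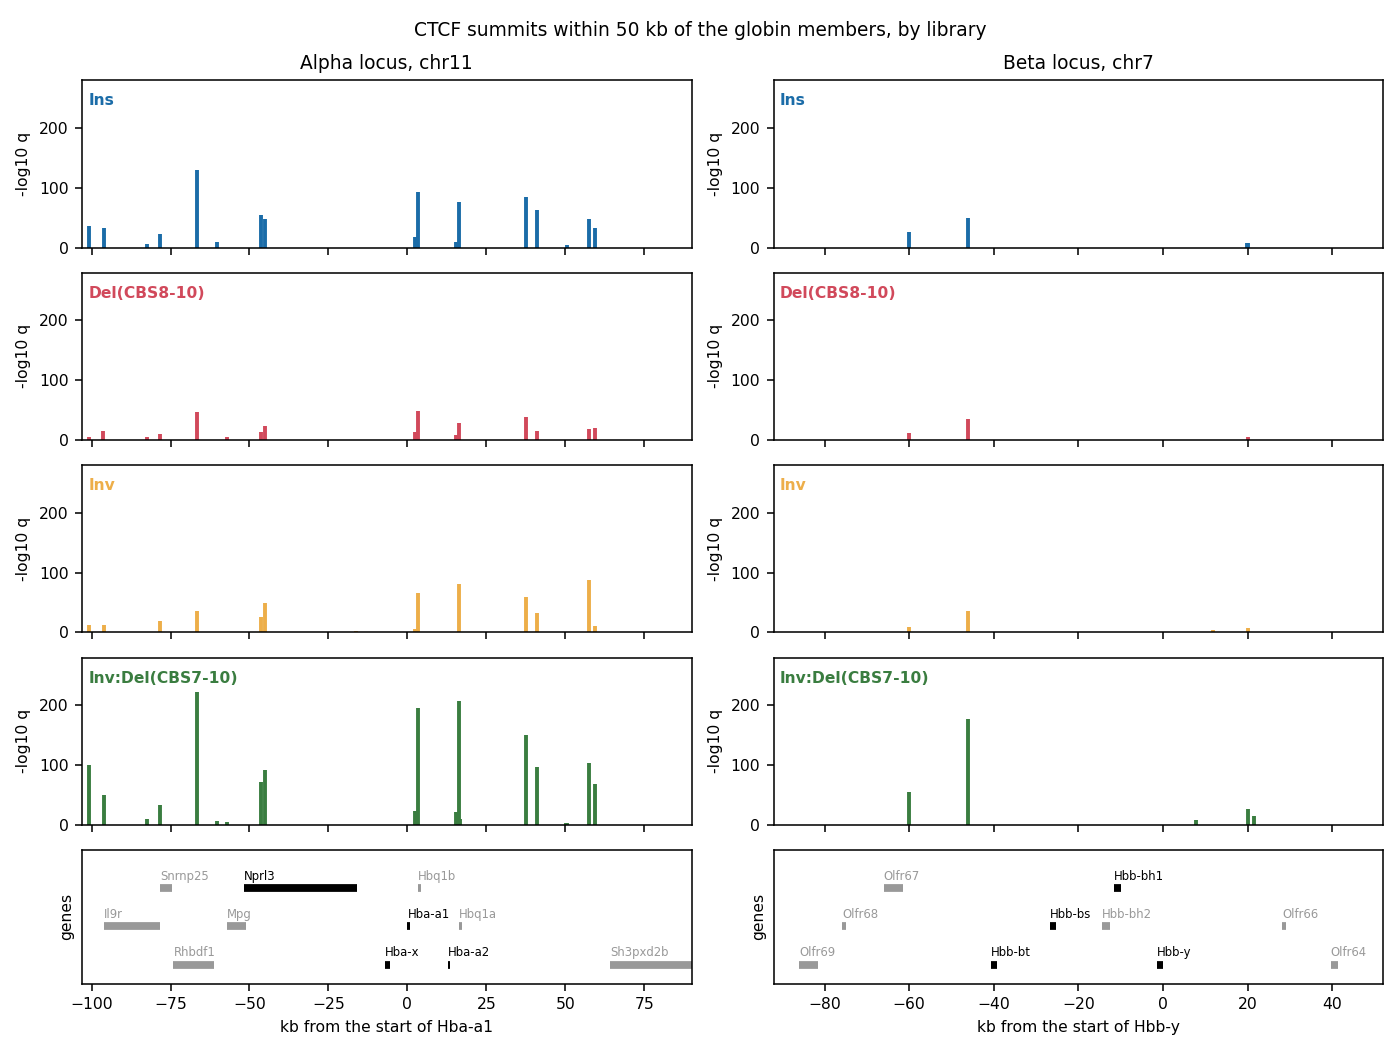
−log10 q of each CTCF summit within 50 kb of a member gene, by library (rows), against distance in kb from the start of Hba-a1 (alpha, chr11, left) or of Hbb-y (beta, chr7, right), with members in black and other coding genes in grey below; pseudogenes and lncRNA genes are left out. The alpha locus carries between 14 and 20 summits per library and the beta locus between 3 and 5, with none between Hbb-bt and Hbb-y.

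Summits at the alpha locus fell into 21 positions, taking summits of different lists within 100 bp as one, and 13 of these were bound in all 4 libraries. Of the rest, 2 were found in 3 libraries, 3 in 2 and 3 in 1. The positions in every library had a median percentile of 74.2, and the others of 18.7. A position counts as in every library only where it was called in all 4 lists, so weak positions tend to drop out. The higher median of the first group therefore follows in part from how the groups were made. At the beta locus 3 of 7 positions were bound in all 4 libraries, and the other 4 were each found in 1. Among those 4 is a second summit of the Ins peak at a shared position. The share of all positions in the genome that were in all 4 lists was not computed, so neither count can be called particular to these loci.

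Within Nprl3, 2 positions were bound in every library, both toward its end next to Mpg. The summit at 32237229 had a −log10 q of 55.0, 13.4, 25.7 and 71.4, with folds of 14.5, 7.75, 11.5 and 12.3. The summit at 32238629 had 47.4, 23.3, 48.5 and 92.4, with folds of 13.1, 10.8, 17.6 and 14.4. The Inv value at the second was high for that list, at percentile 90.6 against 69.6 to 75.9 in the others. Ranked within the peaks of chr11 the gap was smaller, at 90.6 against 77.8 to 79.0. Beyond them no summit was listed for 47.4 kb in Ins, Del(CBS8-10) or Inv:Del(CBS7-10). That stretch holds the remainder of Nprl3 and the whole of Hba-x and Hba-a1. In the Inv library it was broken by a single weak summit at 32267415 within Nprl3, with a −log10 q of 3.05 and a pileup of 4, at percentile 3.30 of its list. Hba-x, which encodes the embryonic zeta chain, had its nearest summit 7.95, 7.95, 7.98 and 7.95 kb away.

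On the side of Nprl3 away from the globins, the strongest site lay within Rhbdf1, a gene for an inactive rhomboid protein. The −log10 q of the summit at 32217057 was 129, 46.1, 36.0 and 222, with folds of 25.4, 18.4, 16.8 and 28.7. It was the highest of the alpha locus in the Ins and Inv:Del(CBS7-10) lists, whereas 5 positions stood above it in the Inv list. Its percentile was 96.5, 90.5, 83.1 and 94.2. A summit at 32205308 lay in the promoter window of Snrnp25, a gene of the minor spliceosome, with 22.5, 9.42, 18.3 and 33.7. Further out, 32187460 within the pseudogene Gm12109 had 32.1, 14.2, 12 and 49.5, and 32182746 had 36.4, 5.69, 11.5 and 100. The last varied most among the shared alpha positions, with percentiles of 66.1, 25.9, 47.4 and 77.6. Weak sites in this flank were 32201180 within Il9r, a cytokine receptor gene (5.64, 4.99 and 9.88, not listed in Inv), 32223460 near Rhbdf1 (9.84 in Ins and 6.65 in Inv:Del(CBS7-10)) and 32226407 before Mpg, a DNA repair glycosylase gene (4.56 in Del(CBS8-10) and 4.75 in Inv:Del(CBS7-10)).

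Beyond Hba-a2, toward Sh3pxd2b, an adaptor protein gene, 4 positions came in 2 pairs and were bound in every library. The first pair lay 24.0 and 27.5 kb from Hba-a2, at 32321349 with a −log10 q of 83.7, 38.0, 60.0 and 150, and at 32324817 with 62.9, 15.7, 31.8 and 96.1. The second pair lay 44.0 and 45.8 kb away, at 32341292 with 48.2, 18.6, 88.2 and 104, and at 32343094 with 32.4, 20.5, 9.92 and 68.5. The Inv list stood apart at the second pair, in opposite directions. At 32341292 the percentile was 72.8, 62.6, 98.8 and 78.2, highest in the Inv list, while at 32343094 it was 63.3, 65.5, 42.1 and 70.3, lowest in the Inv list. With 1 library per genotype this was not tested.

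**Figure D2:**
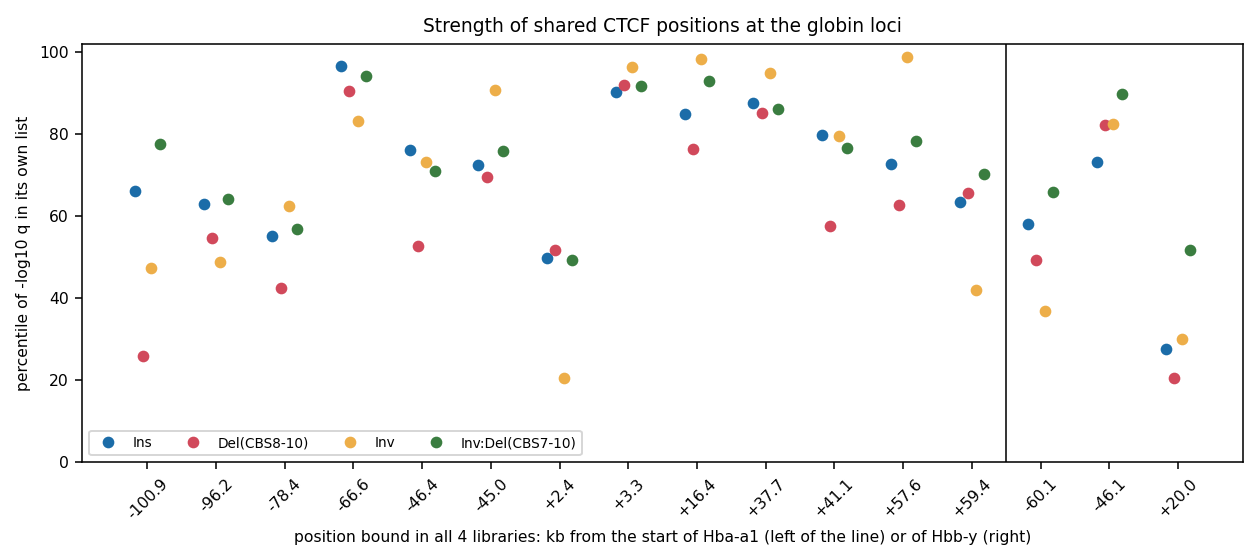
Percentile of −log10 q within its own list (vertical axis, 0 to 100) for the 13 alpha and 3 beta positions bound in all 4 libraries, ordered along the chromosome and labelled by kb from the start of Hba-a1 or Hbb-y; each point is 1 library. The points of the Hbq1b promoter span 6.11 percentile points and those of the outermost Nprl3-side position span 51.7.

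At the beta locus no summit was listed between Hbb-bt and Hbb-y in any library. The summit-free stretch around the 4 member genes was 65.9, 66.2, 57.8 and 54.0 kb long and held 7 whole genes in each library, the 4 members with Hbb-bh2, Hbb-bh3 and Gm15115. Hbb-bt and Hbb-bs encode the adult beta chains, and Hbb-bh1 and Hbb-y embryonic ones. Their nearest summit was 5.46, 5.47, 5.45 and 5.47 kb away for Hbb-bt and 19.5 kb away in every library for Hbb-bs. For Hbb-bh1 it was 29.8, 30.1, 21.7 and 17.9 kb away, and for Hbb-y 19.8, 20.1, 11.7 and 7.89 kb.

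The strongest beta position, at 103807062 between Olfr67 and Hbb-bt, had a −log10 q of 49.2, 34.6, 35.3 and 177, at folds of 17.6, 15.5, 17.2 and 26.6. Its pileup was 49, 35, 32 and 165 fragments, with intervals of 36.3 to 64.8, 24.4 to 48.7, 21.9 to 45.2 and 141 to 192, and its percentile was 73.3, 82.2, 82.5 and 89.8. The second, at 103793115, 1.29 kb from Olfr67, had 25.8, 12, 8.70 and 54.6. Olfr67 is an olfactory receptor gene. Both lie on the side of the adult genes.

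On the side of Hbb-y, where the locus control region lies, the shared position was weak. Its summit at 103873199, 20.0 kb from Hbb-y, had a −log10 q of 7.59, 4.61, 7.19 and 26.3 and a pileup of 11, 8, 7 and 34, at percentiles 27.7, 20.7, 30.1 and 51.8. The same peak of the Ins list had a second summit at 103872969 with equal values. Summits in 1 list alone lay at 103861096 (7.65) and 103874644 (15.3) for Inv:Del(CBS7-10), the list with the highest median pileup, and at 103864890 (3.48) for Inv. The summits at 103861096 and 103864890 were the nearest to Hbb-bh1 and Hbb-y in their libraries.

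**Figure D3:**
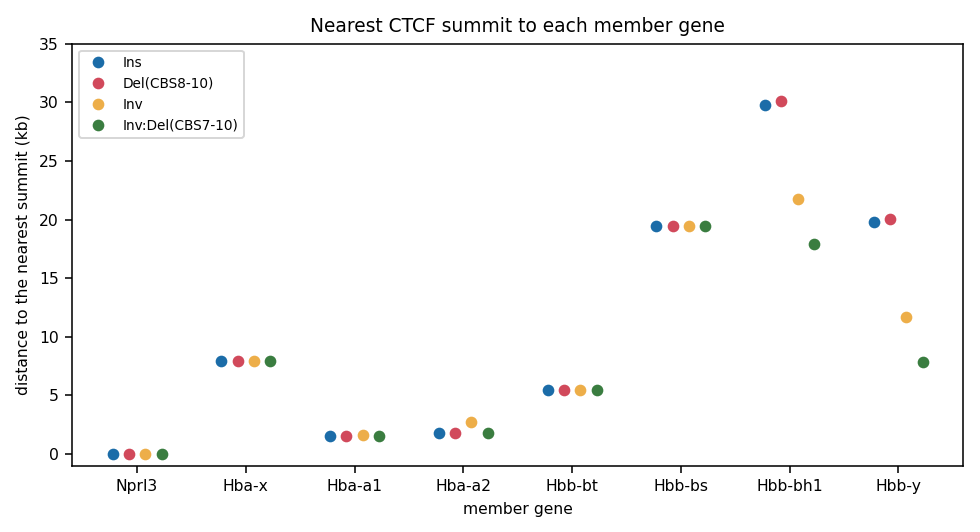
Distance in kb from each member gene to its nearest CTCF summit (0 where a summit lies within the gene), 1 point per library, chr11 for the alpha members and chr7 for the beta members. The alpha members lie within 7.98 kb of a summit in each library, and Hbb-bs and Hbb-bh1 beyond 10 kb in each.

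Set side by side, the alpha locus held more summits per length than the beta locus in each library. Its window of 165 kb carried 17, 16, 14 and 20 summits, or 10.3, 9.68, 8.47 and 12.1 per 100 kb. The beta window of 141 kb carried 4, 3, 4 and 5, or 2.84, 2.13, 2.84 and 3.55 per 100 kb. The 4 in Ins include 2 summits of 1 peak. The difference was 7.29 ± 1.22 summits per 100 kb (SD, n = 4 libraries), higher at alpha in 4 of 4 libraries, with p = 0.13 in an exact two-sided permutation test by sign flips. This is the smallest p that 4 libraries allow. The lists read the same pair of loci, so the SD and p describe agreement between lists and not variation between loci. The same holds for the differences in strength below. Among the 20000 strongest peaks of each list the difference was 2.64 ± 1.17. Counting only summits with a −log10 q of at least 10, the alpha locus had 13, 11, 11 and 14 and the beta locus 2, 2, 1 and 4. Over whole chromosomes the density was 4.29, 3.24, 3.44 and 4.42 per 100 kb on chr11 and 4.13, 3.26, 2.94 and 4.28 on chr7.

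Strength differed in the same direction, but the difference depended on the measure and the window. The median percentile of the summits was 66.1, 56.2, 76.4 and 67.2 at alpha and 42.9, 49.4, 33.5 and 51.8 at beta. In Ins the beta median includes 2 summits of 1 peak, both at percentile 27.7. With that peak counted once, the Ins beta percentiles were 27.7, 58.1 and 73.3, with 58.1 as the median. The differences below, other than at 10 kb and at the threshold of 10, keep both summits. The difference was 22.1 ± 15.4 points (SD, n = 4), higher at alpha in 4 of 4 libraries, again with p = 0.13, the smallest possible, in the exact permutation test. It was largest in Inv, at 42.9 points, the library whose pileup on chr11 stood 0.53 log2 above the others. Without Inv the mean difference was 15.1 points. Ranked within the peaks of the same chromosome, the medians were 70.1, 60.2, 76.6 and 68.1 at alpha and 40.6, 46.3, 31.7 and 49.0 at beta. Ranked by the authors' fold, the difference fell to 9.94 ± 14.4 points (exact permutation p = 0.25), with alpha higher in 3 of 4 libraries and Del(CBS8-10) at 54.1 for alpha and 56.1 for beta. With only summits of a −log10 q of 10 or more it was 6.21 ± 8.15 points (exact permutation p = 0.25), again higher in 3 of 4 libraries. With a window of 100 kb it was 6.08 ± 9.41 points, higher in 4 of 4. Within 10 kb of the members the direction turned in 4 of 4 libraries, to −9.54 ± 13.6 points (exact permutation p = 0.13), where Hbb-bt alone contributed a position in every library. The local background also differed between the loci, with medians of 3.58, 1.66, 2.10 and 7.52 fragments at alpha summits and 1.07, 0.760, 0.240 and 2.24 at beta summits. Reads of the alpha locus could be placed on chr11_delB as well, so alpha values on chr11 may leave out fragments placed there. What background, read placement and the chr11 level in Inv contribute to these differences, and to the counts of summits, was not tested.

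In number of summits the alpha members lay at or above the median gene, and the beta members lay below it. Hba-x in Ins equalled the median, at percentile 47.9 with tied genes split. Within 50 kb, 92.8%, 92.7%, 91% and 93.4% of 21276 protein-coding genes had a summit, and so did all 8 members. The median gene had 8, 6, 6 and 8 summits within 50 kb. Hba-a1 and Hba-a2 each had 9, 8, 8 and 11, Hba-x 8, 8, 8 and 9, and Nprl3 12, 12, 10 and 14, which placed Nprl3 between percentiles 71.3 and 86.0 of all genes. Hba-a1 and Hba-a2 lay between percentiles 54.2 and 69.5 and Hba-x between 47.9 and 69.5. Nprl3 is the longest member, so its window is wider than those of the globin genes. The globin members span only 815 to 1525 bases, and the percentiles of all members were not adjusted for gene length. Hbb-bs and Hbb-bh1 each had 4, 3, 4 and 5, Hbb-y 3, 2, 3 and 4 and Hbb-bt 2, 2, 2 and 3, with Hbb-bt between percentiles 14.8 and 19.9, Hbb-y between 17.2 and 27.9, and Hbb-bs and Hbb-bh1 between 24.1 and 36.4. Olfactory receptor genes, the kind that surrounds the beta locus, had a median of 1 in each library.

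Within 10 kb, 82.2%, 79.2%, 76.7% and 82.6% of protein-coding genes had a summit. Of the members 5, 5, 5 and 6 of 8 did, namely the 4 alpha members and Hbb-bt in every library and Hbb-y for Inv:Del(CBS7-10). Of olfactory receptor genes 20.5%, 21.4%, 17.4% and 23.5% had one. Promoter windows held a summit in 17.5%, 10.7%, 12.9% and 16% of cases. Of the 18 at the globin loci, those of Snrnp25, Hbq1b and Hbq1a did in every library and that of Mpg for Del(CBS8-10) and for Inv:Del(CBS7-10). Those of Hba-x, Hba-a1, Hba-a2, Nprl3, Hbb-bt, Hbb-bs and Hbb-y held none.

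**Figure D4:**
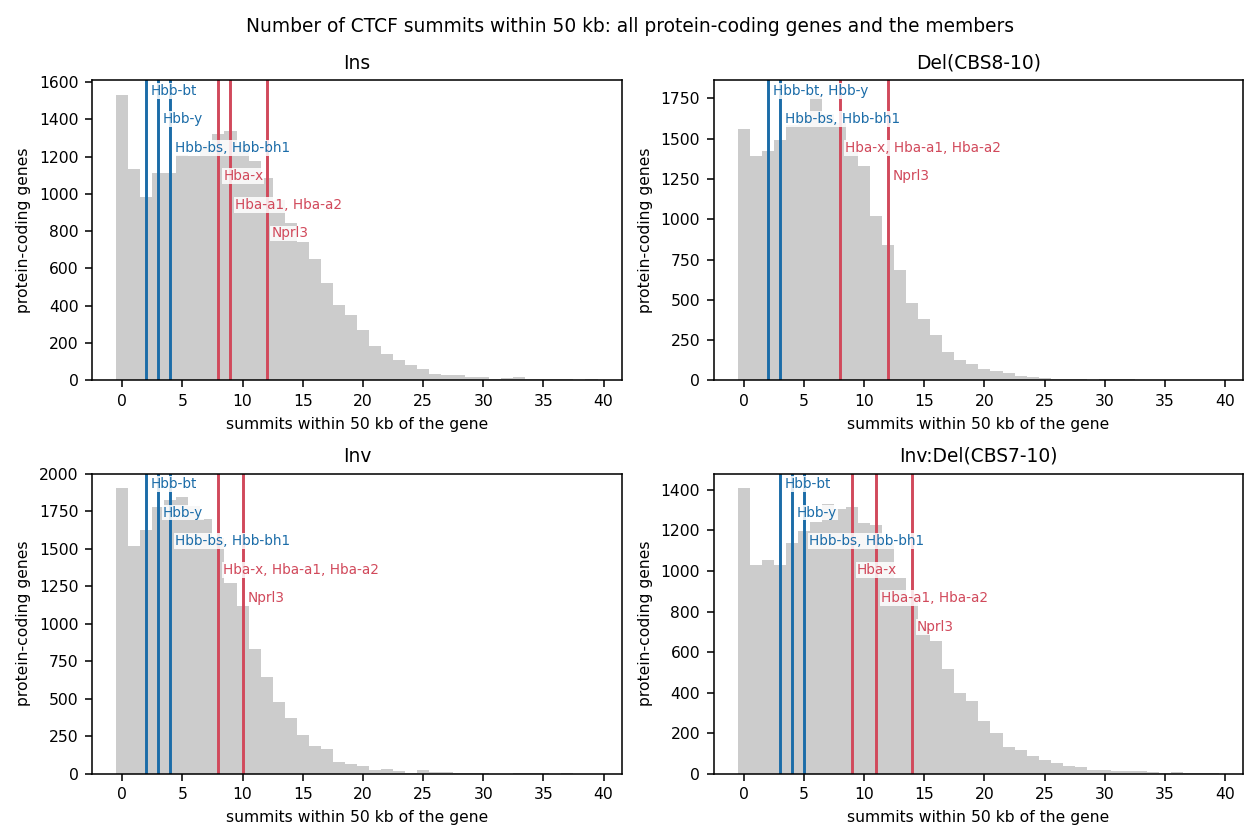
Histograms of the number of CTCF summits within 50 kb of each protein-coding gene (horizontal axis, genes with fewer than 40; vertical axis, number of genes), 1 panel per library, with vertical lines at the alpha members (red) and beta members (blue). The beta members lie between 2 and 5 summits and the alpha members between 8 and 14, around medians over all genes of 6 or 8.

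On chr11_delB the alpha locus showed nearly the same picture. It held 18, 15, 14 and 18 summits at 22 positions, of which 12 were bound in all 4 libraries. Of the chr11 positions, 16 of 17, 15 of 16, 13 of 14 and 17 of 20 were listed within 100 bp on chr11_delB in the same library. The ratio of chr11 to chr11_delB pileup had a median of 0.952, 0.938, 1.00 and 0.947 and ran from 0.421 to 1.88 over all libraries. At the theta promoters the −log10 q on chr11_delB was 104, 41.7, 78.5 and 204 at 32286929 (Hbq1b), beside the 92.7, 49.3, 66.6 and 195 on chr11, and 80.9, 27.9, 79.8 and 210 at 32300034 (Hbq1a). The companion before Hbq1a was again not listed for Inv, with 11.1, 10.2 and 8.56 in the others. At 32341296, beyond Hba-a2, the percentile was 73.7, 56.4, 97.7 and 82.6, again highest for Inv. Ranked within the peaks of chr11_delB it was 80.3, 61.4, 98.1 and 87.6. Summits listed only on chr11_delB included 32240535 within Nprl3 (18.6 in Inv:Del(CBS7-10)) and 32268250, 0.543 kb from Nprl3 (4.34 in Inv). Because reads could be placed on either copy, these values cannot be taken as 2 separate measurements.

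**Figure D5:**
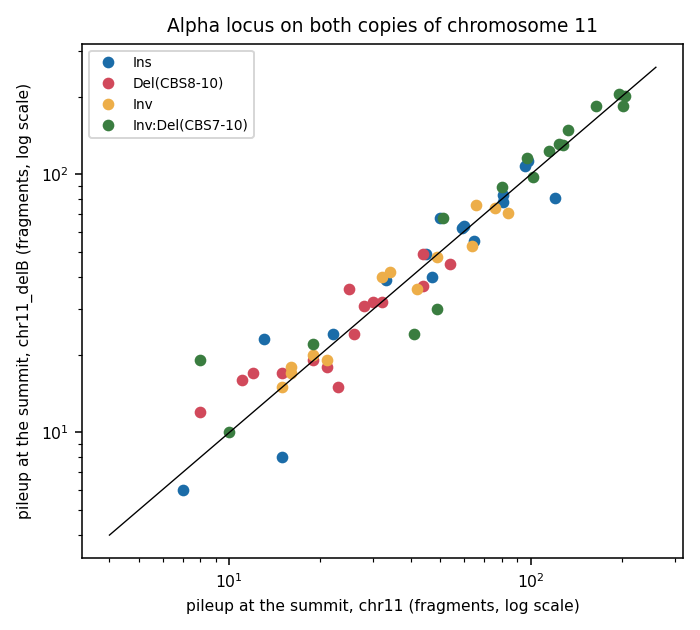
Pileup in fragments at alpha locus summits on chr11 (horizontal, log scale) and at the same position on chr11_delB (vertical, log scale), 1 point per position and library; the line marks equal values. The points lie along the line, with ratios between 0.421 and 1.88.

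Genes around the loci and a list of erythroid genes were read the same way. Of 18 genes beside the members, 12 had a summit within 10 kb in every library and 6 in none. The 6 were all at the beta locus: Hbb-bh2, Olfr69, Olfr68, Olfr64, Gm15115 and Hbb-bh3. These genes were taken for their place beside the members, so their counts are not independent of the positions described above. Per library, 76.7% to 82.6% of protein-coding genes had a summit within 10 kb. The share with such a summit in every library, or in none, was not computed. Of 16 erythroid genes, among them transcription factors that act on globin genes, the erythropoietin receptor gene Epor and the haem synthesis gene Alas2, 14, 13, 13 and 14 had one, to be read against the share of all protein-coding genes given above, and 12 did in every library. For each gene the highest −log10 q within 10 kb in each library is given, which need not be the same position in every library. By −log10 q in Ins the strongest were those of Klf1, the erythroid activator of adult beta globin (145, 48, 33.0 and 188), Ldb1, which bridges enhancers and promoters (122, 91.9, 81.6 and 212), and Lyl1 (104, 49.8, 69.5 and 216). Bcl11a, a repressor of embryonic and fetal globin genes, lacked one for Del(CBS8-10) (15.5, 12.8 and 20.3 in the others). Zbtb7a, a repressor with a similar role, lacked one in the Inv library (9.82, 5.80 and 23.7 in the others). Gata1 and Alas2 had none within 10 kb in any library. Expression was not measured in these lists.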

How the data were processed

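CTCF CUT&RUN libraries of 4 mESC genotypes were used, 1 per genotype. MACS2 2.2.7.1, Bowtie2 2.4.5, bedtools 2.30.0, cutadapt 4.1, Picard and the build mm10 are named, with no role or order, in the submitters' processing notes. The sources used here give neither settings nor filters nor a control. The deposited lists give for each peak a score (10 times the −log10 q, made whole), a fold ratio over local background, a −log10 p-value, a −log10 q-value and a summit, all computed by the authors for each library without pooling. Depth is unknown. The whole-number pileup and the background were therefore recovered from fold and −log10 p (tolerance 0.001), taking the fold as (pileup + 1) over (background + 1). Between 99.9987% and 100% of the peaks of a list were solved. Recovery and position matching were checked on simulated peaks made with the same formula.

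Summits within 50 kb of a member were taken, genes and promoter sequences came from the RefSeq tables (GRCm38.p6), and positions are counted from 1. File coordinates on chr11 before HoxB were taken as those of mm10. As a check, promoter cores had a summit within 150 bp in 10 of 18 cases on chr11 and 15 of 30 on chr7. No rate at shifted coordinates is set beside this, and the theta promoters, read before the letters were chosen, lie on chr11. Genes of chr11 beyond 96 Mb were left out of the background counts. Proteins and the genome sequence were not used here. Named were every member, every position bound in all 4 libraries, and up to 5 of the strongest others at each locus. Beyond this rule, 2 summits listed only on chr11_delB and the weak Inv summit in Nprl3 were named after their values were seen. The members, gene lists and rules were chosen with earlier results of these data known, and the motif letters after the theta promoters were read. Python 3.11.15, NumPy 2.4.6, pandas 2.3.3, SciPy 1.17.1 and Matplotlib 3.10.9 were used.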

Additional observations from a re-analysis of the deposited data

How the results depend on the processing

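The alternatives were other windows, a threshold of 10 on −log10 q, each list's 20000 strongest peaks, the alpha window without Nprl3, chr11_delB for alpha, other ways of matching summits, percentiles within a chromosome or of the fold, and, chosen after seeing the data, leaving out each library. The density difference, which the ways of matching and ranking do not enter, was positive under each of the others, between 2.64 (20000 strongest peaks) and 7.84 (without Inv) summits per 100 kb. The percentile difference ran from 6.08 (100 kb) to 28.9 (without Nprl3) points apart from 10 kb, where it turned to −9.54. By fold (9.94) and at the threshold of 10 (6.21), 3 of 4 libraries were higher at alpha. With the 20000 strongest peaks the beta locus had no peak in Ins, so that no mean over 4 libraries was computed. The differences of the other 3 were 5.60 in Del(CBS8-10), 10.2 in Inv and 2.57 in Inv:Del(CBS7-10). The number of alpha positions in every library was 5 at 10 kb and 4 with the 20000 strongest peaks, and from 9 to 18 otherwise. The number of beta positions was 1 at 10 kb, 5 at 100 kb, 1 at that threshold and 0 with the 20000 strongest peaks, and 3 otherwise. As p cannot fall below 0.13 with 4 libraries or 0.25 with 3, these p-values say nothing on stability. No paired analysis was possible because each genotype has 1 library (between genotypes; the loci were paired within libraries). At the beta locus, summits listed in 1 library had pileups of 4 to 24 fragments, so their precision is low.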

Other observations

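Beyond the 50 kb rule the beta locus had further CTCF sites on the side of Hbb-y. The last summit inside the rule there lay 21.4 kb from Hbb-y, and the first outside it 60.0 kb away. That position, at 103913176 near Olfr631, had a −log10 q of 68.2, 15, 27.8 and 84.1 in the order of the genotypes given above. A further one at 103942918, 89.7 kb from a member and near Olfr633, had 71.4, 29.1, 28.2 and 156. The strongest beta position within 50 kb, at 103807062, had 49.2, 34.6, 35.3 and 177, lower than both in Ins and higher than both in the other 3 lists.

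At the alpha locus on chr11 the last summit inside the rule lay 49.2 kb from Nprl3 and the first outside it 69.6 kb away. On chr11_delB weak summits lay just outside the rule beyond Hba-a2, at 32348833 (3.41 in Ins) and 32348767 (4.53 in Del(CBS8-10)). Between 69.6 and 99.6 kb on chr11, 5 positions were bound in every library. The strongest were 32132391 within the lncRNA gene Gm39676, with a −log10 q of 97.5, 51.8, 55.0 and 231, and 32141243, also near it, with 90.3, 21.9, 74.9 and 203. All 5 lay on the Nprl3 side. Promoter windows with the core CCAGGGGGC held a summit in 48.8%, 39.7%, 44.8% and 47.3% of 330 cases genome-wide, against 17.1%, 10.4%, 12.6% and 15.7% of windows without it. The theta promoters were among the 330.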
